A study of Mus musculus with 12 samples.

Results

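The 45 genes described here encode the machinery of autophagy and of the lysosome in mouse cytotoxic T lymphocytes (CTL). They were chosen by name and role and not by a cut-off on their values, though earlier results of these data were known. They fell into 12 role classes, from the proteins that build the autophagosome to the enzymes and pumps of the lysosome. The deposited table held 44 of them among 13283 genes, and the remaining one, Mitf, was not analysed here. The question put to the data was whether these genes, many of which are counted among FOXO targets in other tissues, moved in CTL when the PI3K catalytic subunit p110δ was inhibited or when FOXO1 was lost.

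CTL were grown from lymph node or spleen cells of female mice aged 11 to 27 weeks. The cells were activated for 48 h with antibodies to CD3 and CD28 and then expanded with IL-2 at 20 ng/mL plus 2 ng/mL of IL-12. CD8+ cells were sorted only at the end of culture, after the inhibitor. WT CTL carried GzmB cre+, a Cre recombinase driven by the granzyme B promoter, and no floxed Foxo1 allele. FOXO1-GFP KO CTL carried the same Cre together with FOXO1-GFP fl/fl, a GFP-tagged Foxo1 allele whose exon 2 lies between LoxP sites, and were sorted as CD8+ GFP- cells, whereas WT CTL were sorted as CD8+ cells. On day 6 each genotype received IC87114 at 10 µM, an inhibitor of p110δ (WT+PI3Kdi and FOXO1-GFP KO+PI3Kdi), or DMSO vehicle (WT and FOXO1-GFP KO) over 24 h. Granzyme B is known to be made after T cell activation, and when Foxo1 was lost in these cultures was not measured. Each of the 4 groups held 3 libraries that the labels call biological replicates, 12 libraries in all, and the labels do not say whether a replicate with and without inhibitor came from 1 mouse.

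Values are FPKM, reads per kilobase of summed exon and 1e6 reads, so levels can be compared between genes. The library sizes behind these values, after the authors' scaling, were 12.9 to 48.0 M reads (M, 1e6 reads), as estimated from the steps between low values. Foxo1 itself, the targeted gene, was at 9.99, 5.77 and 5.79 FPKM (WT), 10.5, 5.84 and 7.5 (WT+PI3Kdi), 0.58, 1.08 and 1.44 (FOXO1-GFP KO) and 0.61, 1.06 and 1.75 (FOXO1-GFP KO+PI3Kdi), and its fold change between genotypes was 0.152 without and 0.147 with inhibitor (limma, adjusted p = 0.0148 and 0.00478). Of the markers of CTL, 6 of 6 were in the table and their sum was 8118 to 11940 FPKM in every library. The table held 6 of 12 myeloid markers, and their sum of 33.9 to 66.5 FPKM came mainly from Cd68 and Fcer1g, while Cd14, Itgam and Mpeg1 reached at most 0.41, 0.16 and 0.35 FPKM in any library. The table also held 5 of 10 B cell markers, which summed to 19.3 to 25.8 FPKM in WT libraries of either treatment and to 8.51 to 11.7 FPKM in FOXO1-GFP KO libraries, and 3 of 4 CD4 T cell markers, which summed to 4.96 to 8.24 FPKM. The part of B cell RNA in the genotype comparisons below was not tested, and in bulk RNA fewer cells of a type and less RNA per cell cannot be told apart.

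In autophagy a double membrane closes round cytoplasm and fuses with the lysosome, where acid hydrolases break the cargo down. The ULK kinase complex starts the process, the lipid kinase complex of PIK3C3 and Beclin 1 marks the membrane, ATG9 and the WIPI proteins supply and read it, and a ubiquitin-like conjugation system attaches ATG8 proteins of the LC3 and GABARAP families to it. Lysosomal genes share a promoter element, the CLEAR element, which is bound by TFEB and TFE3. PI3K activates AKT, which keeps FOXO factors out of the nucleus, and growth signals through mTORC1 likewise hold TFEB in the cytoplasm.

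Levels of these mRNAs in CTL spread widely, also within a role class. Ctsd, which encodes the aspartic protease cathepsin D, was first, with a mean of 297 FPKM over the 12 libraries and rank 164 among all genes. It was at 254, 285 and 325 FPKM (WT), 207, 243 and 282 (WT+PI3Kdi), 295, 312 and 371 (FOXO1-GFP KO) and 292, 317 and 381 (FOXO1-GFP KO+PI3Kdi). Every FOXO1-GFP KO+PI3Kdi library lay above every WT+PI3Kdi library, and the vehicle groups overlapped. Gabarap, an ATG8 protein, followed with a mean of 104 FPKM and single values of 88.5, 101 and 114 FPKM (WT), 87.5, 107 and 121 (WT+PI3Kdi), 97.6, 97.8 and 106 (FOXO1-GFP KO) and 102, 111 and 111 (FOXO1-GFP KO+PI3Kdi). Psap, the precursor of the saposins that present lipids to lysosomal hydrolases, had a mean of 99.9 FPKM, and Lamp1, a heavily glycosylated membrane protein of the lysosome, had 69.1.

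Sqstm1, the cargo receptor p62, had a mean of 65.2 FPKM, and Npc2, which hands cholesterol from the lysosomal lumen to NPC1, had 56.3. Sqstm1 was at 61.4, 65.9 and 62.1 FPKM (WT), 61.3, 70.7 and 71.97 (WT+PI3Kdi), 66.8, 62.97 and 56.1 (FOXO1-GFP KO) and 70.1, 73.8 and 59.9 (FOXO1-GFP KO+PI3Kdi). Lamp1 was at 71.2, 66.9 and 63.6 FPKM (WT), 73.5, 68.1 and 64.5 (WT+PI3Kdi), 73.8, 75.98 and 60.2 (FOXO1-GFP KO) and 78.4, 75.7 and 57.3 (FOXO1-GFP KO+PI3Kdi). In both genes the 4 groups overlapped. In the proton pump of the lysosome, the V-ATPase, the subunit gene Atp6v0d1 was the most abundant of the 3 listed, at 38.2, 41.9 and 41.4 FPKM (WT), 38.2, 42.7 and 47.6 (WT+PI3Kdi), 39.7, 40.5 and 40.7 (FOXO1-GFP KO) and 42.3, 43.8 and 42.5 (FOXO1-GFP KO+PI3Kdi).

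Of the genes that build the autophagosome, the most abundant of their role classes were Becn1 (Beclin 1) with a mean of 21.9 FPKM, Atg3, the E2-like enzyme of ATG8 lipidation, with 22.6, Atg101, a subunit of the ULK complex, with 12.8, and Atg2a, a lipid transfer protein, with 4.81. Atg3 was at 20.1, 24.6 and 25.2 FPKM (WT), 20.3, 21.9 and 21.7 (WT+PI3Kdi), 21.8, 23.04 and 24.7 (FOXO1-GFP KO) and 23.9, 23.6 and 20.6 (FOXO1-GFP KO+PI3Kdi). Atg2a was at 5.3, 4.4 and 4.38 FPKM (WT), 5.63, 4.82 and 5.53 (WT+PI3Kdi), 4.41, 4.18 and 4.72 (FOXO1-GFP KO) and 4.56, 4.29 and 5.5 (FOXO1-GFP KO+PI3Kdi). Groups overlapped for both. Of the transcription factors of the lysosome, Tfeb had a mean of 2.33 FPKM and Tfe3 2.52, with single values of Tfe3 of 2.75, 2.56 and 2.79 FPKM (WT), 2.97, 2.43 and 2.49 (WT+PI3Kdi), 2.21, 2.52 and 2.49 (FOXO1-GFP KO) and 2.28, 2.33 and 2.36 (FOXO1-GFP KO+PI3Kdi).

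At the bottom of the order stood Wipi1, a reader of phosphatidylinositol 3-phosphate, with 0.429 FPKM, and Ctsl, the cysteine protease cathepsin L, with 0.126. Ctsl was listed at 0.12, 0.18 and 0.13 FPKM (WT), 0.11, 0.14 and 0.23 (WT+PI3Kdi), 0.11, 0.1 and 0.02 (FOXO1-GFP KO) and 0.17, 0.12 and 0.08 (FOXO1-GFP KO+PI3Kdi), which stood for about 2 to 56 reads in a library. Its values varied by 11.5 times between single libraries and carried the largest counting error of the list. The remaining 42 members had means of 1.83 to 297 FPKM.

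**Figure D1:**
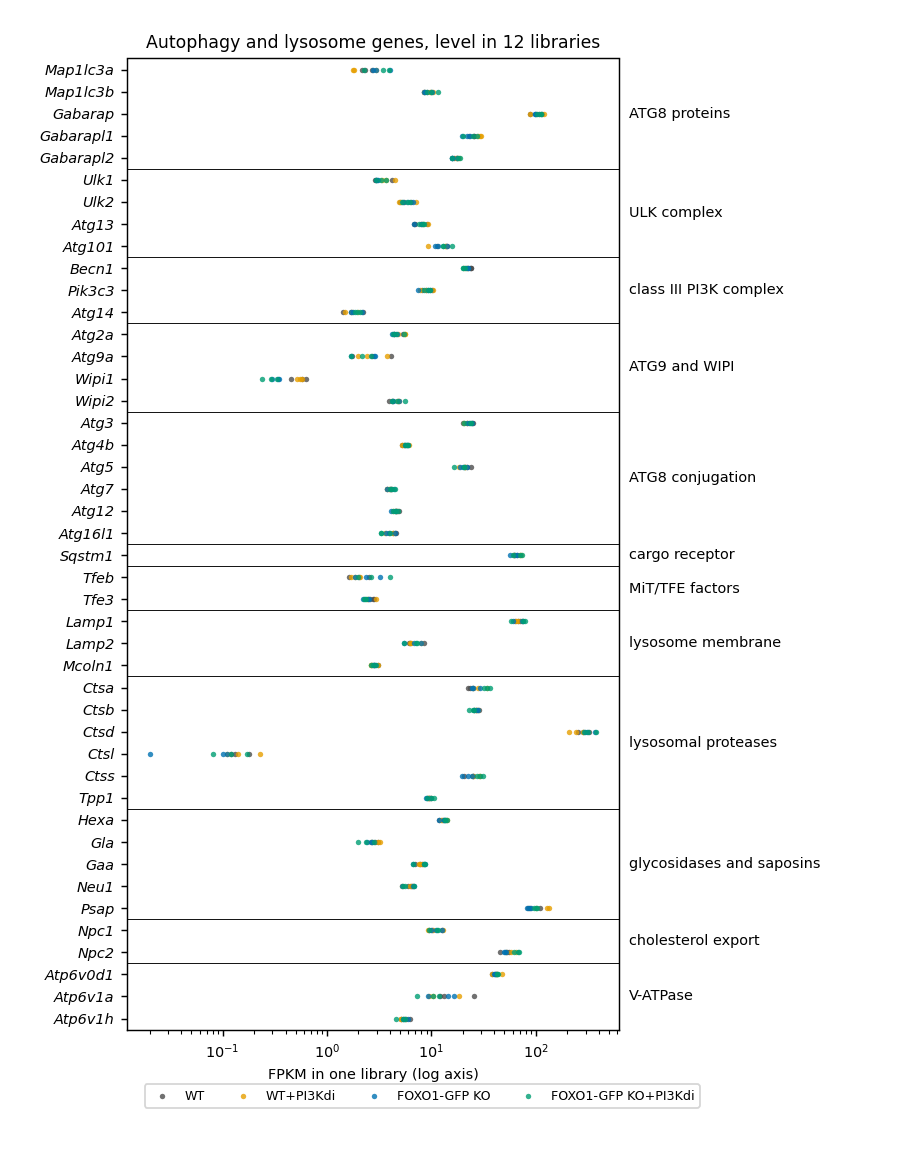
Level of each of 44 autophagy and lysosome genes in FPKM on a log axis, with 1 point per library coloured by group (4 groups of 3) and genes ordered by role class. Ctsd lies at 207 to 381 FPKM and Ctsl at 0.02 to 0.23, and for most genes the 12 points lie close together.

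The members varied little among the 12 libraries, with a median SD of 0.149 on the log2(FPKM + 0.1) scale. Over the 10700 genes that averaged 1 FPKM or more in some group, the median was 0.228. Those genes were not matched to the members for level or exon length. Most of the variation followed the replicate number within a genotype, which joins the library with and the library without inhibitor. Such pairs took a median share of 56.8% of a member's variance, against 64.5% over those genes, while the inhibitor took 9.26% against 6.42% and genotype 6.73% against 8.4%. The pair took over 50% in 24 of 44 members, beside 7317 of the 10700 genes, and genotype in 1, Wipi1, with 86.6%, beside 648. The inhibitor took more than the pair in 5 members, beside 971 of the 10700. The sum of all members was 1023 to 1170 FPKM per library, or 0.292 to 0.345% of all FPKM.

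Atp6v1a, the catalytic subunit of the V-ATPase, moved most between pairs among members above 1 FPKM. It was at 25.6, 13.2 and 11.95 FPKM (WT), 18.5, 10.3 and 9.5 (WT+PI3Kdi), 14.3, 16.5 and 9.25 (FOXO1-GFP KO) and 11.7, 10.3 and 7.32 (FOXO1-GFP KO+PI3Kdi). The first WT pair was high in both treatments and the third FOXO1-GFP KO pair low in both, and within every pair the library with inhibitor was the lower one. Atg9a, the lipid scramblase of autophagosome growth, ranged from 1.71 to 4.11 FPKM and had 85.9% of its variance between pairs. Exons of Atg9a overlap those of the predicted gene Gm29253 on the same strand over 1832 bp, and the part of this overlap in its values was not tested.

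**Figure D2:**
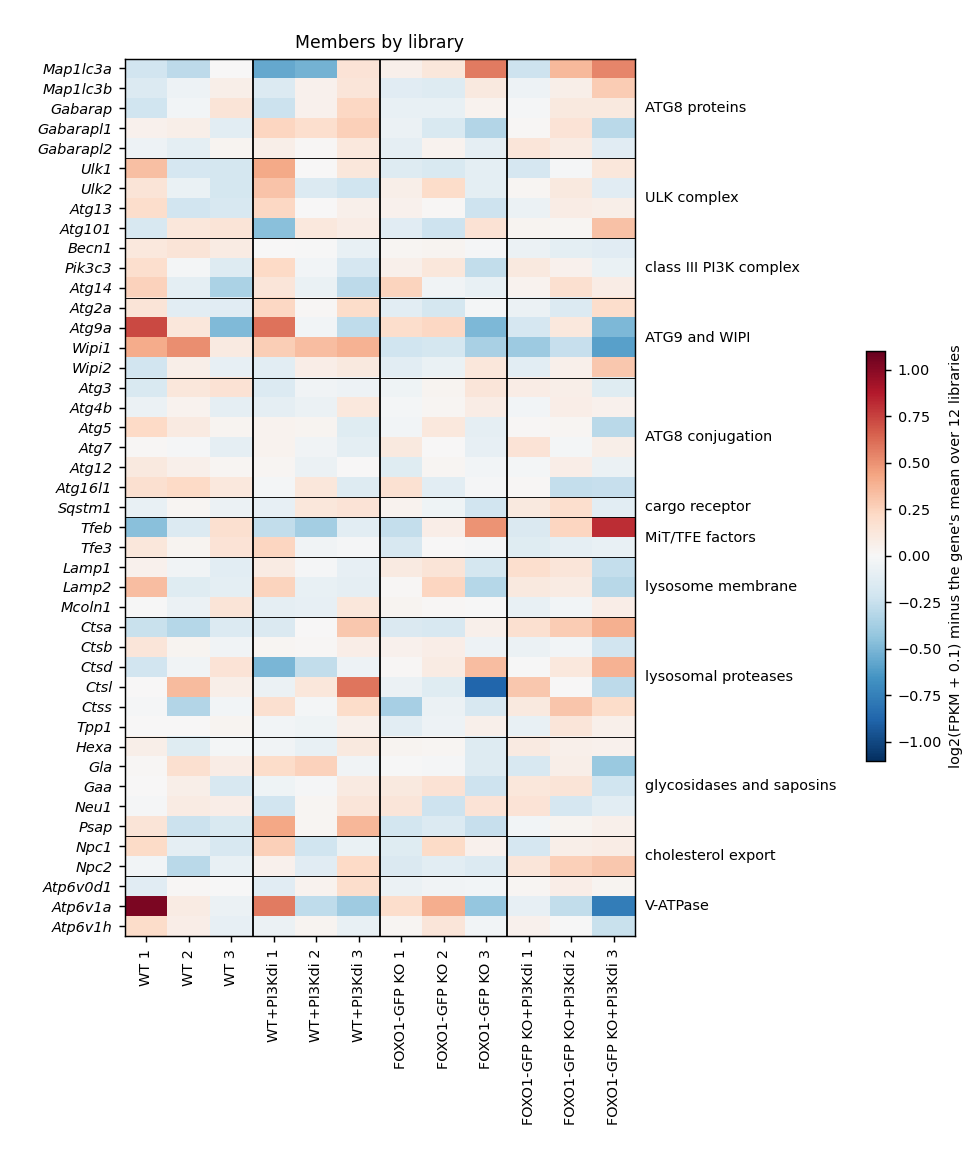
Difference of log2(FPKM + 0.1) from the mean of each gene over 12 libraries, with 44 members in rows by role class and libraries in columns by group and replicate. Atp6v1a, Atg9a and Tfeb stand out by replicate, Wipi1 is high in all 6 WT and low in all 6 FOXO1-GFP KO libraries, and most other cells are pale.

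The first comparison asked what 24 h of p110δ inhibition did to these mRNAs in WT CTL. With inhibitor the lysosomal genes Psap, Ctsa and Ctss were higher and Ctsd and Becn1 lower in each of the 3 pairs, by 1.18 to 1.28 times for the former. In limma with the replicate block, in which the 2 libraries of a pair share a random effect, these 5 of 44 members (11.4%) passed an adjusted p under 0.05, as did 7.41% of all genes. None of the 44 passed with a fold change over 1.5, as 2.57% of all genes did. Without the block, 0 members passed, beside 0.0979% of all genes, and 2 members had an unadjusted p under 0.05, Psap and Ctsa, beside 5.14% of all genes. The median member moved by 0.0050 on the log2 scale, against -0.038 for all genes, and 22 members lay above 0 and 22 below.

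In FOXO1-GFP KO CTL the inhibitor was followed by higher Ctss, Ctsa, Npc2 and Psap in each of the 3 pairs, by 1.17 to 1.33 times. These 4 of 44 members (9.09%) passed an adjusted p under 0.05 with the replicate block, beside 10.1% of all genes. None of them exceeded a fold change of 1.5, beside 2.79% of all genes. Without the block 0 members passed, beside 0.0452% of all genes, and the 3 with an unadjusted p under 0.05 were Npc2, Ctss and Ctsa, beside 5.17% of all genes. The median member moved by 0.048 against -0.020 for all genes, and 27 members lay above 0. The shares of members called were thus near the background in both genotypes.

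Averaged over both genotypes, 8 of 44 members (18.2%) passed with the block, 5 higher and 3 lower, beside 20.9% of all genes. None passed with a fold change over 1.5, beside 2.12% of all genes, and without the block 0 members passed, beside 0.527% of all genes. There were 6 members with an unadjusted p under 0.05 without the block, of 44, beside 9.47% of all genes. In all 6 pairs, 7 members (Ctsa, Ctss, Psap, Npc2, Gabarapl1, Map1lc3b and Atg2a) were higher with inhibitor, beside 9.2% of all genes, and 3 (Becn1, Atg16l1 and Atp6v1a) were lower. Together 10 of 44 members kept 1 direction in all 6 pairs, beside 23.2% of all genes. Libraries with and without inhibitor did not overlap for 2 members in WT (Gabarapl1 and Becn1), beside 10.2% of all genes, and for 7 in FOXO1-GFP KO, beside 10.1%. Of the 6 CTL markers, 1 rose (Cd8a) and 2 fell (Prf1, perforin, and Ifng, interferon-γ) with inhibitor in WT, and 3 rose (Cd8a, Cd8b1 and Cd3e) and the same 2 fell in FOXO1-GFP KO (limma with replicate block). Cd8a went from 154 ± 6.15 to 189 ± 19.7 FPKM in WT (SD, n = 3; limma adjusted p = 0.0239 with the block), Prf1 from 414 ± 56.6 to 297 ± 30.8 (0.0284) and Ifng from 26.1 ± 5.79 to 13.3 ± 3.14 (0.000442). Their part in the members' results was not tested.

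By role, the 8 calls over both genotypes with the block fell into 7 classes. Of 6 lysosomal proteases 2 rose (Ctsa and Ctss) with a median log2 fold change of 0.12 for the class, 1 of 5 glycosidases and saposins rose (Psap, class median 0.026), as did 1 of 2 cholesterol export genes (Npc2, 0.13). Of the ATG8 proteins 1 of 5 rose (Gabarapl1, 0.098). Further, 1 of 3 class III PI3K complex genes (Becn1), 1 of 6 conjugation genes (Atg16l1) and 1 of 3 V-ATPase genes (Atp6v1a) fell, with class medians of 0.023, -0.047 and -0.10, and in the other 5 classes 0 of 14 members passed (limma, adjusted p under 0.05). These groups are small, and no test set 1 class against another.

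**Figure D3:**
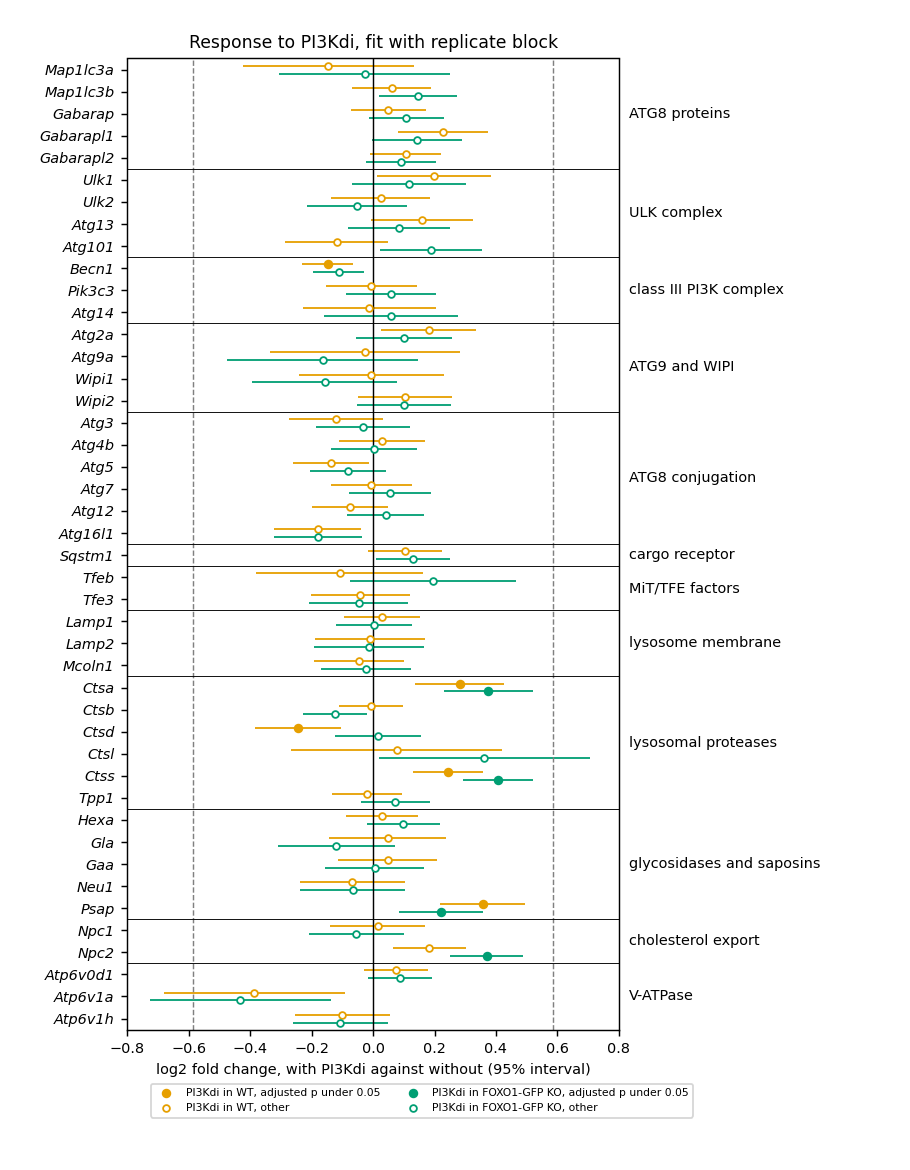
Log2 fold change of each member with against without PI3Kdi in WT (orange) and FOXO1-GFP KO (green), with 95% intervals from the limma fit with replicate block; filled points passed an adjusted p under 0.05 and dashed lines mark a fold change of 1.5. Filled points lie at Becn1, Ctsa, Ctsd, Ctss, Psap and Npc2, and no estimate reaches a dashed line.

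Among the lysosomal proteases, Ctsa encodes cathepsin A, which also protects neuraminidase 1 and beta-galactosidase from breakdown. Its level was 23.6, 22.4 and 25.1 FPKM (WT), 24.95, 27.9 and 34.2 (WT+PI3Kdi), 24.95, 24.7 and 29.1 (FOXO1-GFP KO) and 31.6, 33.8 and 36.6 (FOXO1-GFP KO+PI3Kdi). All FOXO1-GFP KO+PI3Kdi libraries lay above all FOXO1-GFP KO libraries, while in WT the lowest library with inhibitor, 25.0 FPKM, lay below the highest without, 25.1. The log2 fold change came to 0.28 for WT and 0.38 for FOXO1-GFP KO, with an adjusted p of 0.026 and 0.00656 with the block and 0.921 and 0.683 without it. The WT call ended without pair 2 (log2 fold change 0.26, adjusted p = 0.16) and without pair 3 (0.20, adjusted p = 0.177), and the FOXO1-GFP KO call without pair 2 (adjusted p = 0.0793).

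Ctss encodes cathepsin S, a cysteine protease known for trimming invariant chain in antigen-presenting cells. Its level was 25.2, 20.3 and 24.9 FPKM (WT), 28.8, 25.1 and 29.3 (WT+PI3Kdi), 19.8, 24.3 and 22.5 (FOXO1-GFP KO) and 27.4, 31.5 and 29.3 (FOXO1-GFP KO+PI3Kdi). Each library with inhibitor exceeded its partner, and in FOXO1-GFP KO the groups did not overlap. The log2 fold change was 0.24 (95% interval 0.13 to 0.36) in WT and 0.41 (0.29 to 0.52) in FOXO1-GFP KO, with an adjusted p of 0.0167 and 0.00136 with the block and 0.999 and 0.604 without. In FOXO1-GFP KO the call held with any pair left out (adjusted p 0.0121 to 0.0146), and in WT with none (0.0828 to 0.0999).

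Cathepsin D moved the other way in WT. Ctsd was lower with inhibitor in all 3 WT pairs, with means of 288 ± 35.7 FPKM without and 244 ± 37.8 with it (SD, n = 3), a log2 fold change of -0.24 and an adjusted p of 0.041 with the block and 1.0 without. The call ended with any WT pair left out (adjusted p = 0.0996 to 0.182). In FOXO1-GFP KO the means were 326 ± 39.5 and 330.1 ± 45.9 FPKM and the log2 fold change 0.016. The difference between the 2 responses was 0.26 with an adjusted p of 0.322 with the block and 1.0 without, so it did not pass. Exons of Ctsd overlap those of the protein-coding model Gm49369 on the same strand over 808 of 2351 bp. The other listed proteases, Ctsb, Tpp1 and Ctsl, passed no test.

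Psap and Npc2 serve lipid handling in the lysosome. Psap was at 109, 83.6 and 88.03 FPKM (WT), 133, 100.3 and 127 (WT+PI3Kdi), 85.9, 88.97 and 82.98 (FOXO1-GFP KO) and 96.97, 101 and 103 (FOXO1-GFP KO+PI3Kdi). The WT+PI3Kdi library of each pair exceeded its partner, the groups overlapped in WT and did not in FOXO1-GFP KO. Its log2 fold change was 0.36 (0.22 to 0.49) in WT and 0.22 (0.083 to 0.36) in FOXO1-GFP KO, with an adjusted p of 0.00592 and 0.0466 with the block and 0.656 and 0.933 without. Leaving out the third WT pair took the WT value to 0.27 (adjusted p = 0.0791), and leaving out any of the FOXO1-GFP KO pairs ended the call there (0.0973 to 0.218).

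Npc2 was at 54.8, 45.5 and 52.7 FPKM (WT), 57.7, 51.3 and 64.9 (WT+PI3Kdi), 50.1, 51.6 and 50.2 (FOXO1-GFP KO) and 61.3, 66.8 and 68.4 (FOXO1-GFP KO+PI3Kdi). All 6 libraries with inhibitor exceeded their partners, and only in FOXO1-GFP KO did the groups not overlap. Its log2 fold change was 0.18 in WT, which did not pass (adjusted p = 0.0639 with the block), and 0.37 in FOXO1-GFP KO, which did (adjusted p = 0.00222 with the block and 0.596 without). The test of the difference of the responses gave 0.19 with an adjusted p of 0.398. Npc1, the membrane partner of NPC2, had log2 fold changes of 0.015 and -0.054, and the glycosidases Hexa, Gla, Gaa and Neu1 passed no test in either genotype.

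**Figure D4:**
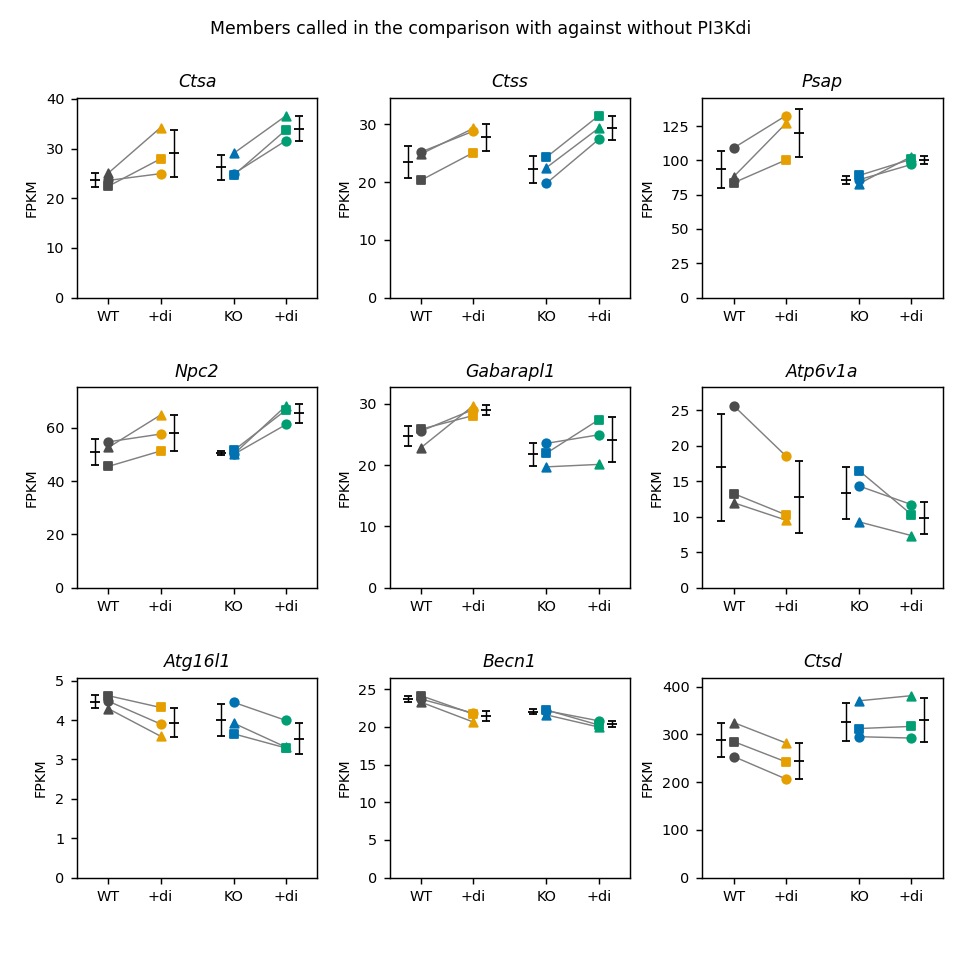
FPKM of 9 members with and without PI3Kdi (+di) in WT and FOXO1-GFP KO, on axes that start at 0; grey lines join the libraries of a pair (circle, replicate 1; square, 2; triangle, 3) and bars give the mean and SD of 3 libraries. Lines rise for Ctsa, Ctss, Psap, Npc2 and Gabarapl1 and fall for Atp6v1a, Atg16l1 and Becn1 in all 6 pairs, and Ctsd falls in the 3 WT pairs.

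Of the autophagy genes, Becn1 was lower with inhibitor in all 6 pairs, and its 4 groups were tightly spread. It was at 23.7, 24.2 and 23.3 FPKM (WT), 21.8, 21.7 and 20.7 (WT+PI3Kdi), 22.2, 22.3 and 21.6 (FOXO1-GFP KO) and 20.8, 20.3 and 19.99 (FOXO1-GFP KO+PI3Kdi). The groups with and without inhibitor did not overlap in either genotype, though the change was small, with log2 fold changes of -0.15 and -0.11. With the block the adjusted p was 0.037 in WT, 0.0804 in FOXO1-GFP KO and 0.0065 over both, against 1.0, 0.933 and 0.436 without it. The WT call ended with any WT pair left out (adjusted p = 0.12 to 0.202), and the call over both held (0.0191 to 0.0468). Its partners Pik3c3 and Atg14 passed no test.

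Gabarapl1, a GABARAP-like ATG8 protein that is often named as a FOXO target, was higher with inhibitor in all 6 pairs. It was at 25.5, 25.9 and 22.8 FPKM (WT), 29.1, 28.1 and 29.7 (WT+PI3Kdi), 23.5, 21.9 and 19.7 (FOXO1-GFP KO) and 24.9, 27.4 and 20.1 (FOXO1-GFP KO+PI3Kdi). The 3 WT+PI3Kdi libraries lay above all other libraries, and within FOXO1-GFP KO the groups overlapped. Its log2 fold changes, 0.23 (WT) and 0.14 (FOXO1-GFP KO), did not pass with the block (adjusted p = 0.0623 and 0.177). That of 0.19 over both did (adjusted p = 0.0183 with and 0.525 without the block). Over both genotypes the call ended when 1 of 3 pairs was left out, WT pair 1, WT pair 3 or FOXO1-GFP KO pair 2 (adjusted p = 0.0553, 0.0773 and 0.084). The other 4 ATG8 genes passed no test, with log2 fold changes over both genotypes of -0.086 (Map1lc3a) to 0.10 (Map1lc3b).

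Atg16l1, the scaffold that directs ATG8 lipidation to the membrane, was lower with inhibitor in all 6 pairs. It was at 4.48, 4.62 and 4.29 FPKM (WT), 3.9, 4.32 and 3.59 (WT+PI3Kdi), 4.45, 3.65 and 3.92 (FOXO1-GFP KO) and 3.99, 3.29 and 3.31 (FOXO1-GFP KO+PI3Kdi). The log2 fold change over both genotypes was -0.18 (adjusted p = 0.0185 with the block and 0.587 without), and leaving out any of 4 of the 6 pairs brought the adjusted p to 0.0572 to 0.0731. For Atp6v1a the value over both was -0.41 (-0.62 to -0.20), with an adjusted p of 0.0121 with the block and 0.673 without. This was the greatest fall of any member, and its adjusted p stayed at 0.0193 to 0.0493 with any pair left out. The 4 ULK complex genes, the 4 ATG9 and WIPI genes, the other 5 conjugation genes, Sqstm1, Tfeb, Tfe3, Atp6v0d1, Atp6v1h and the 3 lysosome membrane genes passed no test of the inhibitor.

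The precision of the responses can be stated for all members. With the block, the 95% interval of the response lay wholly within a 1.5-fold change either way for 43 of 44 members in WT and 42 in FOXO1-GFP KO. The exceptions were Atp6v1a in both genotypes and Ctsl in FOXO1-GFP KO. Ctsl averaged 0.126 FPKM, where the 0.1 added before the logarithm pulls a fold change toward 0, so its limits say little. Without the block the interval lay within these limits for 37 of 44 members in each genotype. The exceptions there included Psap, Ctsd and Tfeb in WT and Ctsa, Ctss, Npc2 and Tfeb in FOXO1-GFP KO. For Tfeb the interval with the block was -0.38 to 0.16 in WT and -0.077 to 0.47 in FOXO1-GFP KO.

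Promoter sequences, taken from RefSeq on GRCm38.p6 as the 250 bases before and 50 after a start site, were available for 36 of the 44 members and 9623 genes of the table; Map1lc3a, Becn1, Pik3c3, Atg12, Atg16l1, Ctsb, Npc1 and Atp6v1h had no entry. The centre of the CLEAR element, TCACGTGA (its own reverse complement, so both strands are read at once), was in 7 of 36 members (19.4%) and in 2.28% of the genes. The shorter E-box CACGTG, which lies within it, was in 13 of 36 (36.1%) and in 11.7%. The forkhead site GTAAACA, which reads TGTTTAC on the other strand, was in 0 of 36 and in 3.04%. A match describes letters in this window and is not a binding site shown in CTL. The sequences below are shown because these members hold the full TCACGTGA and the other 29 do not; capitals mark that match, with 10 bases on each side, read on the strand of the gene.
Atg3: gagagtcgagTCACGTGAggccttaggt
Atp6v0d1: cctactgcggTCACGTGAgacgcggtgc
Atp6v1a: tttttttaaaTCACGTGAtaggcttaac
Ctsa first match: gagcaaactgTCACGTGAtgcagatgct
Ctsa second match: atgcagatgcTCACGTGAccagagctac
Ctsd: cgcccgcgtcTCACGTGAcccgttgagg
Gla first match: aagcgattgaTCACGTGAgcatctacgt
Gla second match: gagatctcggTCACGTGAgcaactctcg
Mcoln1: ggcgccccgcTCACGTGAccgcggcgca

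The window of Atg3 lies at chr16:45158747-45158774 (plus strand) and that of Atp6v1a at chr16:44139374-44139401 (minus strand), with the first capital at -72 and -132 from the start site. For Atp6v0d1, at chr8:105566051-105566078 (minus strand), it was at -4, and for Mcoln1, the lysosomal calcium channel, at chr8:3500463-3500490 (plus strand), it was at -46. Ctsa, on the plus strand, held 2 matches, at -13 (chr2:164833750-164833777) and at 5 (chr2:164833767-164833794), and Gla, alpha-galactosidase A, on the minus strand, held 2, at -228 (chrX:134601216-134601243) and -195 (chrX:134601183-134601210). The match of Ctsd was at -99 (chr7:142387909-142387936). The 250 bases before the start site of Ctsd (chr7:142387828-142388077, minus strand) held a second E-box, and are shown whole because this is the most abundant member; capitals mark both E-boxes.
Ctsd: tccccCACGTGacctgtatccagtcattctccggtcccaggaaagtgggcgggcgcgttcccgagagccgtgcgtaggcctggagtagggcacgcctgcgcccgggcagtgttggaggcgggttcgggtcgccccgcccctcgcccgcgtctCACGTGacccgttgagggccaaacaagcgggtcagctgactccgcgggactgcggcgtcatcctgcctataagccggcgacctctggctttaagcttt

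The 7 members with TCACGTGA did not move as a block with the inhibitor. In WT 3 of 7 were above 0 and 4 below, from -0.39 for Atp6v1a to 0.28 for Ctsa, with a median of -0.047. In FOXO1-GFP KO 3 were above 0 and 4 below, from -0.43 to 0.38 for the same 2 genes, with a median of -0.0245. Among the other 29 members with a sequence, 18 were above 0 in WT and 22 in FOXO1-GFP KO, with medians of 0.029 and 0.090, and Psap, Ctss and Npc2 were among them.

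The second comparison asked how loss of FOXO1 changed the same genes. Wipi1 was the one member called. It was at 0.58, 0.63 and 0.45 FPKM (WT), 0.52, 0.55 and 0.57 (WT+PI3Kdi), 0.34, 0.35 and 0.3 (FOXO1-GFP KO) and 0.29, 0.33 and 0.24 (FOXO1-GFP KO+PI3Kdi). The 6 FOXO1-GFP KO libraries, at 0.24 to 0.35 FPKM, lay below the 6 WT libraries, at 0.45 to 0.63, and the values stood for about 17 to 133 reads. Without the block Wipi1 passed in the comparison with inhibitor (log2 fold change -0.75, SE 0.16, adjusted p = 0.0476) and over both treatments (-0.67, adjusted p = 0.00769), and not without inhibitor (-0.60, adjusted p = 0.218). With the replicate block none of the 3 passed (adjusted p = 0.191, 0.276 and 0.652). At so low a level the size of the change depended on the 0.1 FPKM added before the logarithm. With inhibitor and no block it was -0.92 with 0.01 added and -0.27 with 1.

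Wipi1 was thus 1 of 44 members (2.27%) called with inhibitor, beside 1.54% of all genes, and 1 of 44 over both treatments, beside 3.56%, while 0 members were called without inhibitor, beside 0.331%. With the block 0 members were called in each, beside 0.233% of all genes without inhibitor, 1.25% with it and 0.73% over both. At an unadjusted p under 0.05 and without the block there was 1 member without inhibitor, beside 6.51% of all genes, and there were 3 with it (Wipi1, Ctsd and Gabarapl1), beside 10.2%. The comparison with inhibitor lost the call for Wipi1 when any 1 of its 6 libraries was left out (adjusted p = 0.0822 to 0.175), and the one over both treatments kept it (0.00746 to 0.0304). These fits had no block and counted both libraries of a pair as separate. With the block and any pair left out, the adjusted p over both treatments was 0.332 to 0.966 (limma).

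Libraries of the genotypes did not overlap for 6 members without inhibitor, beside 10.3% of all genes, and for 5 with it, beside 14.8%. Wipi1 and Tfe3 were lower in FOXO1-GFP KO in both, Becn1, Ctsl and Gla only without inhibitor, and Gabarapl1 and Ctsb only with it. These separations are descriptions, and no difference of the separations was tested. Map1lc3a, an LC3 protein, was higher in every FOXO1-GFP KO than in every WT library without inhibitor, at 2.29, 2.17 and 2.68 FPKM (WT), 1.78, 1.83 and 2.97 (WT+PI3Kdi), 2.78, 2.92 and 4.02 (FOXO1-GFP KO) and 2.27, 3.45 and 3.93 (FOXO1-GFP KO+PI3Kdi), and the genotypes overlapped with inhibitor. Its log2 fold change over both treatments was 0.48 (SE 0.17, adjusted p = 0.211 without and 0.855 with the block). Tfeb, named here after its values were seen, had 0.40 over both (adjusted p = 0.368 without the block), with FOXO1-GFP KO pair 3 at 3.2 and 4.03 FPKM and the other FOXO1-GFP KO libraries at 1.86 to 2.66.

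Ctsd and Gabarapl1 leaned in opposite directions between genotypes. With inhibitor Ctsd had means of 244 ± 37.8 FPKM in WT and 330.1 ± 45.9 in FOXO1-GFP KO, a log2 fold change of 0.44 (adjusted p = 0.294 without and 0.198 with the block). Gabarapl1 had means of 28.9 ± 0.811 and 24.1 ± 3.71 FPKM, a log2 fold change of -0.27 (adjusted p = 0.459 and 0.611). Neither difference passed. The median member differed between genotypes by -0.020 without and 0.0059 with inhibitor (all genes, -0.012 and 0.0061). In the fit without block, the 95% interval lay within a 1.5-fold change either way for 38 of 44 members without and 35 with inhibitor.

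**Figure D5:**
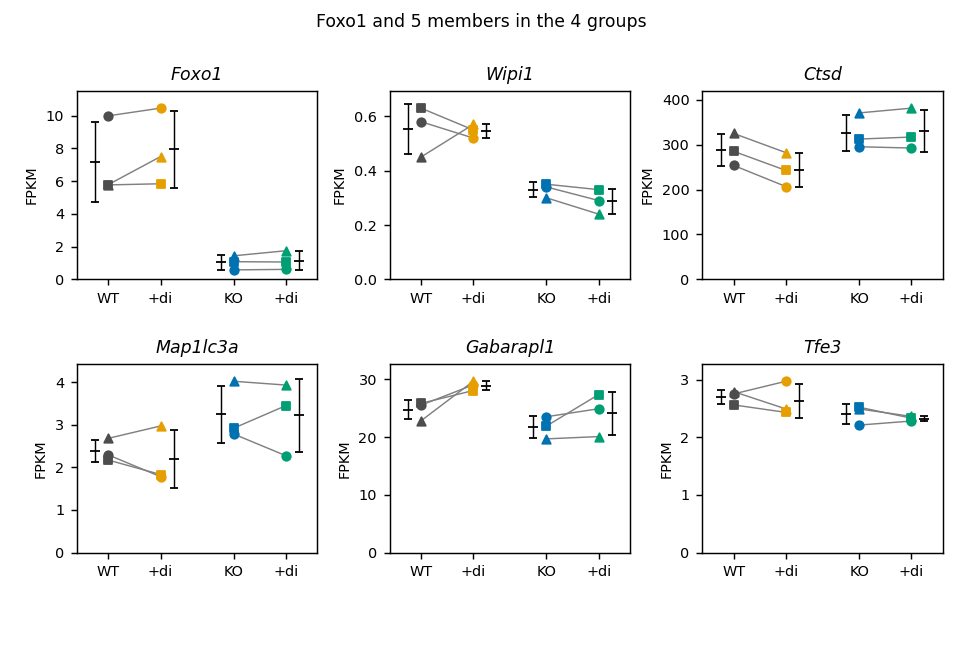
FPKM of Foxo1 and 5 members in WT and FOXO1-GFP KO with and without PI3Kdi (+di), with axes from 0, lines joining pairs (circle, replicate 1; square, 2; triangle, 3) and bars giving the mean and SD of 3 libraries. Foxo1 is at 5.77 to 10.5 FPKM in WT and 0.58 to 1.75 in FOXO1-GFP KO libraries, and Wipi1 separates the genotypes at a far lower level. Ctsd, Map1lc3a, Gabarapl1 and Tfe3 passed no test between genotypes, either without the block or with the block within genotype.

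The third comparison set the response to inhibitor in FOXO1-GFP KO against that in WT, which asks whether FOXO1 was needed for it. No member passed, either without the block, beside 0.0% of all genes, or with it, beside 0.0376%. There were 0 members with an unadjusted p under 0.05 without the block, beside 1.51% of all genes, and 4 with it (Ctsd, Atg101, Npc2 and Ctss), beside 10.8% of all genes. Atg101 was at 11.2, 13.9 and 14.01 FPKM (WT), 9.21, 13.8 and 13.4 (WT+PI3Kdi), 11.7, 10.8 and 14.2 (FOXO1-GFP KO) and 12.9, 12.9 and 15.9 (FOXO1-GFP KO+PI3Kdi). It was lower with inhibitor in each WT pair and higher in each FOXO1-GFP KO pair, and the difference of 0.31 (0.071 to 0.54) had an adjusted p of 0.324 with the block. For the 4 members called in FOXO1-GFP KO, the difference of responses was 0.094 for Ctsa (-0.11 to 0.30), 0.16 for Ctss (0.0014 to 0.32), -0.14 for Psap (-0.33 to 0.06) and 0.19 for Npc2. The intervals of Ctsa and Psap included 0, and the adjusted p of all 4 was 0.398 or more. With the block, the intervals of these 4 members leave room for responses that differ by up to 0.36 on the log2 scale. Other members had wider limits. That of Atg101 reached 0.54, and the intervals of Ctsl and Tfeb went beyond a 1.5-fold difference.

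Beyond the members, 8 lists of other autophagy and lysosome genes held 129 of 135 genes in the table. Without the block 0 of 129 passed in either PI3Kdi comparison, and with it 5 rose and 6 fell in WT and 5 rose and 3 fell in FOXO1-GFP KO. Over all genes 984 of 13283 (7.41%) and 1339 (10.1%) passed in the same fits, so these counts were near the background. Calcoco1, an autophagy receptor, was at 2.32, 1.69 and 1.7 FPKM (WT), 2.64, 2.49 and 3.51 (WT+PI3Kdi), 1.61, 1.57 and 2.25 (FOXO1-GFP KO) and 2.43, 2.8 and 3.0 (FOXO1-GFP KO+PI3Kdi), with log2 fold changes of 0.57 and 0.59 (limma with replicate block, adjusted p = 0.023 and 0.0191). It rose in both genotypes. Wdr45, a WIPI protein, rose in FOXO1-GFP KO by 0.68 (adjusted p = 0.00517), from 1.87 ± 0.457 to 3.07 ± 0.82 FPKM (SD, n = 3), and Ctsw, a protease of cytotoxic cells, by 0.44 (adjusted p = 0.0262). In WT, Sgsh, a sulfatase of heparan sulfate breakdown, rose by 0.51 and Tpcn1, an endolysosomal cation channel, by 0.44 (adjusted p = 0.00616 and 0.00143).

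Among genes that fell with the inhibitor, Bnip3, a mitophagy receptor, Cln3, a lysosomal membrane protein, and M6pr, a sorting receptor for lysosomal enzymes, did so in WT, with log2 fold changes of -0.31, -0.27 and -0.23 (adjusted p = 0.0326, 0.0451 and 0.0419 with the block). In FOXO1-GFP KO these were Gusb, beta-glucuronidase, Tmem41b, a lipid scramblase, and the V-ATPase subunit Atp6v0a2, with -0.38, -0.34 and -0.18 (adjusted p = 0.0164, 0.0204 and 0.0473). Over both genotypes 9 of 129 rose and 19 fell, beside 20.9% of all genes that passed in either direction, with Lipa, lysosomal acid lipase, among those that fell (-0.30, adjusted p = 0.0114). Of the 14 other V-ATPase genes 4 fell and 0 rose, where 1526 of all 13283 genes fell and 1255 rose. They were Atp6v0a2, Atp6v1e1, Atp6v1b2 and Atp6v1c1, with log2 fold changes of -0.20, -0.18, -0.16 and -0.14. Falls were not particular to this list. Of 20 other autophagy genes 5 fell and 2 rose, and of 10 other cargo receptors 2 fell and 1 rose. Without the block 0 of 129 passed over both genotypes, and no list was tested against another.

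Between genotypes the clearest gene of these lists was Bnip3. It was at 131, 147 and 111 FPKM (WT), 91.1, 129.9 and 93.98 (WT+PI3Kdi), 65.1, 70.3 and 61.3 (FOXO1-GFP KO) and 62.8, 62.2 and 50.2 (FOXO1-GFP KO+PI3Kdi). All 6 FOXO1-GFP KO libraries lay below all 6 WT libraries. Its log2 fold change was -0.97 without and -0.83 with inhibitor, with an adjusted p of 0.0239 and 0.0208 without the block and 0.0324 and 0.0262 with it. With inhibitor Sesn1, an mTORC1 inhibitor known as a FOXO target, and Tpcn1 were also lower in FOXO1-GFP KO, with -0.76 and -0.58 (adjusted p = 0.0352 and 0.0307 without the block, 0.0215 and 0.0484 with it). Over both treatments 6 of 129 were lower without the block, beside 345 of all 13283 genes. Gm2a, the GM2 activator, was among them (-0.57, adjusted p = 0.0174). With the block only Bnip3 was lower (adjusted p = 0.0172), beside 73 of all genes.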

How the data were processed

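The authors sequenced mRNA (TruSeq Stranded, 300 ng RNA, 75 bp paired reads), aligned it with STAR 2.7.1a to GRCm38.p6, counted reads per Ensembl gene, filtered low genes and scaled libraries with edgeR's TMM; their deposited table gives FPKM with 2 decimals for 13283 genes. FPKM is per kilobase of summed exon, and how reads in exons shared by gene models on 1 strand were assigned was not tested. From it, log2(FPKM + 0.1) was fitted in limma 3.58.1 (R 4.3.3) with 4 group means and a mean-variance trend, with Benjamini-Hochberg adjustment over all genes, threshold 0.05, two-sided. The same fit was run with the replicate number as a block within genotype (consensus correlation 0.757). Libraries of 1 number in 1 genotype deviated together over 10700 genes (correlation 0.581 to 0.824 in WT and 0.587 to 0.764 in FOXO1-GFP KO), whereas across genotypes it was -0.469 to 0.714, so blocked values are given beside the others. The pairing comes from the labels' numbers and this check; no source used here says which libraries shared a mouse.

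Members, lists and motifs were chosen with earlier results of these data known. Values in every library are given for members with an adjusted p under 0.05 in any contrast of either fit, the 3 of lowest p in each contrast, and the most abundant of each role class; of the other pathway genes, up to 3 called per direction and contrast are named. Depth, here the library size after TMM scaling, was estimated from the spacing of low FPKM values as 12.9 to 48.0 M reads. Of values of held-out genes, 98.6 to 100.0% came out whole within 0.2 of a read, where chance gives 40%. The scripts were tested on simulated data. Alternatives were other pseudocounts, a filter at 1 FPKM, median ratio scaling, voom on estimated reads, blocks of other kinds and each library or pair left out. Promoters came from RefSeq tables on GRCm38.p6. One result of the pathway lists is not reported here.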

Additional observations from a re-analysis of the deposited data

Results flagged for a closer look

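Atg101, a subunit of the ULK complex, was lower with PI3Kdi in all 3 WT pairs and higher in all 3 FOXO1-GFP KO pairs, and this opposite direction is what drew attention to it. The response in FOXO1-GFP KO minus that in WT was 0.3067 on the log2 scale (limma, adjusted p = 0.324 with the replicate block and 1.0 without), so the difference did not pass. Of all genes, 402 (3.03%) had opposite directions in every pair.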

How the results depend on the processing

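Counts of members called depended mainly on the replicate block. Against 0 without it, the block within genotype called 5 members in WT, 4 in FOXO1-GFP KO and 8 over both genotypes. With pairs as fixed terms, which gives no genotype contrast, these were 5, 5 and 9, with voom on estimated reads plus the block 4, 5 and 9, and with median ratio scaling plus the block 5, 4 and 11; the last pair of settings was chosen after seeing the data. A block by replicate number shared over genotypes called 0, 0 and 3. With the block and 1 pair left out, the counts were 0 to 2 in WT, 2 to 3 in FOXO1-GFP KO (3, 2 and 3 without pairs 1, 2 and 3) and 6 to 9 over both. In WT they were 2 without pair 1, 1 without pair 2 and 0 without pair 3. Over both they were 6, 8 and 6 without WT pairs 1, 2 and 3 and 9, 6 and 7 without FOXO1-GFP KO pairs 1, 2 and 3. With single libraries left out and no block, the count stayed 0 for the inhibitor.

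Between genotypes with inhibitor, the 1 call (Wipi1) became 0 with the block, with any pair or single library left out, with a pseudocount of 0.01, with voom with and without the block, and with median ratio scaling plus the block; a filter at 1 FPKM left Wipi1 untested and gave 0. The block by shared number gave 2 (Ctsd and Wipi1). Calls with a fold change over 1.5 became 0 in those same settings that gave 0, and also with a pseudocount of 1. Over both treatments the count went from 1 to 0 with the block, alone, with voom, with median ratio scaling or with any pair left out, and at 1 FPKM, and to 3 with the shared number (Ctsd, Map1lc3a and Wipi1); with a fold change over 1.5 a pseudocount of 1 also gave 0. It stayed 1 with each single library left out and no block. The median difference of the members with inhibitor moved from 0.0059 to -0.0343 and 0.0348 without FOXO1-GFP KO+PI3Kdi replicate 2 and 3, and that over both treatments from -0.0044 to -0.0454 with the block and without that pair. Median ratio scaling raised the members without overlap in WT from 2 to 5 and turned the sign of 8 uncalled members there, so that 30 lay above 0 instead of 22. The causes of these shifts were not tested. Of the other values, 405 summary values stayed near their reported size, 3089 values of named members stayed on their side of the threshold, 131 crossed into a call and 26 lost one. The sign changed in 201 of 3246 values of named members, 0 of them called before or after, and in 25 of 163 values of the members' medians; with 1 library left out these ran from -0.0147 to 0.033 for PI3Kdi in WT and from -0.0483 to 0.0075 for genotype without inhibitor, so their directions were not stable. Ctsl and Wipi1 rested on few reads, which limits their precision.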
